A study of Mus musculus with 7 samples.

Results

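The genes described here are 40 imprinted genes of the mouse, 40 of the 31078 genes that GENCODE annotates on GRCm38 in the same 4 biotypes (protein-coding, antisense, lincRNA and sense intronic). They were chosen by name, by a rule that uses no measured value, though with earlier results of these data known. Of them, 16 are known to be expressed from the maternal copy and 23 from the paternal copy. Gnas is expressed from either copy depending on which of its promoters is used. In the lists of H3K27ac peaks, each gene was given its promoter peaks (any part within 1 kb of an annotated start), its body peaks (elsewhere over the gene) and the remaining peaks within 50 kb. The peaks are not allele-resolved. Each value is a sum over all maternal and paternal copies, so it does not say which of them carried the mark.

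The cells were 3 tumour cell clones, each grown from a different skin tumour of a Cdkn2ab-/- mouse, which lacks the cell cycle inhibitors p15Ink4b, p16Ink4a and p19Arf, on a mixed background obtained by crossing 129P2 to FVB. The clones had been selected for growth in soft agar, so each is the progeny of a cell that grows without anchorage, and no normal skin or other genotype was analysed beside them. H3K27ac is a histone mark found at active promoters and enhancers, and ChIP-seq reads out the DNA held by it after pull-down with an antibody. Clones 1 and 2 had 1 H3K27ac library each, clone 3 had 2 that were pooled, 4 in all, and the 3 IgG control libraries belonged to clones 1 and 3. With 1 condition and no second group there was no comparison to test; the main counts are set beside the share of all 31078 genes with the same kind of peak.

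Imprinted genes are expressed from the copy inherited from one parent. The choice is set in the egg or the sperm by DNA methylation of control regions, many of which are the promoters of long non-coding RNAs or lie within genes, and the methylated copy is bound by ZFP57 and silenced. Many imprinted genes control growth of the embryo and the placenta and are turned down after birth.

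The lists hold 29182, 49587 and 29277 peaks for clones 1, 2 and 3, with a median summit of 37, 34 and 53 reads. No listed summit had under 13, 12 and 25 reads, so a gene without a peak can still carry the mark at a lower level. Fold enrichment, the height of a summit over the local control background, was not on one scale in the 3 clones: of 11427 genes with promoter peaks in all of them, 92.6% had the highest value in clone 2 and the lowest in clone 3. The local background of clones 1 and 2 was alike, compared at pairs of summits within 20 bp after the median ratio between the clones was taken out. It was then the same to within 5% in 45.9% of 3976 pairs, against 11.7% of 3607 pairs of clones 1 and 3. The correlation of its logarithms was 0.96 and 0.15. Which control was used for clone 2 is not stated. On Chr15 the background stood at 1.35 times the level of other autosomes for clones 1 and 2, whose backgrounds were alike, and at 1.43 times for clone 3. Of 12 keratinocyte markers 3 (Itga6, Cdh3 and Sox9) were marked at a start in all 3 clones and 7 in none, among them Krt5, Trp63 and Cdh1. Krt14 had one in clone 1 only and Sfn in clone 2 only. Of 8 markers of fibroblasts and dermal papilla 3 (Vim, Prrx1 and Twist1) had one in all 3 clones. Sox2 and Corin had none, and Col1a1, Col1a2 and Pdgfra had one in clones 1 and 2. Of the other lists, 1 of 4 immune markers (Csf1r, clone 2), 0 of 3 endothelial markers and 1 of 3 melanocyte markers (Mitf, all clones) had a promoter peak. For scale, H3K27ac marked a start in every clone for 46.5% of the 21938 protein-coding genes, and in no clone for 42.6%. The marker lists are short, and what they say of cell type was not tested.

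The bases just before the starts of 6 imprinted genes are given first, because these starts lie at known control regions and differ in whether H3K27ac was found there. The Kcnq1ot1 start and the exon 1A start of Gnas had a peak in all 3 clones, the Mcts2 start in clone 2 only, and those of Mest, Snrpn and Plagl1 in none. Each is 250 bases, 5′ to 3′ on the strand of the gene, from the GRCm38 genome, and ends at the base before the start. Capitals mark the hexamer TGCCGC, which ZFP57 binds when it is methylated, or its reverse complement GCGGCA.
Kcnq1ot1, chr7:143296550-143296799, minus strand: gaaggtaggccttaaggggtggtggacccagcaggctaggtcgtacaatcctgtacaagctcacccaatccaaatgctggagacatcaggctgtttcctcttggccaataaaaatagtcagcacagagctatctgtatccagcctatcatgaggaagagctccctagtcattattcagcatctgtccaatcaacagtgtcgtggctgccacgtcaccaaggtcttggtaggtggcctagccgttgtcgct
Gnas exon 1A, chr2:174327320-174327569, plus strand: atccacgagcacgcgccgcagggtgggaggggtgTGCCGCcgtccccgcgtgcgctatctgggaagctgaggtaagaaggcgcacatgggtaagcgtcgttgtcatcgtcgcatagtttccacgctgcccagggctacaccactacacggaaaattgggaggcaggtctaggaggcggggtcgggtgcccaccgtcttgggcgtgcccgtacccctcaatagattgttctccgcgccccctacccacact
Mcts2, chr2:152686785-152687034, plus strand: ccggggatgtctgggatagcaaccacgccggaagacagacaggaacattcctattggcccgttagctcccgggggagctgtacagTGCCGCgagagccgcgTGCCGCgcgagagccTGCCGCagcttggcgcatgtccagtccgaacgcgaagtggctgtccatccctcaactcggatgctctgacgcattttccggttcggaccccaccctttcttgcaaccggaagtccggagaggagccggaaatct
Mest, chr6:30737800-30738049, plus strand: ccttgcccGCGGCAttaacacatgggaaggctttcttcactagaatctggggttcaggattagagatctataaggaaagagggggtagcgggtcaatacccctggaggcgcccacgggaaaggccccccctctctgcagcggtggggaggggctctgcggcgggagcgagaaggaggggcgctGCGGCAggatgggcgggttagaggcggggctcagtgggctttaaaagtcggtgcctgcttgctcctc
Snrpn, chr7:60005112-60005361, minus strand: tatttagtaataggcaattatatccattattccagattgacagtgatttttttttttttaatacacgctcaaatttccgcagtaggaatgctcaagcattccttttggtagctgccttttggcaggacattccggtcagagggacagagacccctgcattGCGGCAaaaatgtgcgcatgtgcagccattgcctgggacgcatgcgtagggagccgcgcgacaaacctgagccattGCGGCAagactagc
Plagl1, chr10:13090441-13090690, plus strand: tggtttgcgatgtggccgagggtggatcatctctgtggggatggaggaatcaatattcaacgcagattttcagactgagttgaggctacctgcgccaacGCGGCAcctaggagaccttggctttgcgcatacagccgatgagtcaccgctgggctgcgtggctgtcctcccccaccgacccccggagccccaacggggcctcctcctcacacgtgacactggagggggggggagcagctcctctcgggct
The hexamer occurred 3 times before the Mcts2 start, 2 times each before those of Mest and Snrpn, 1 time each at Gnas and Plagl1, and 0 times at Kcnq1ot1, where 5 CpG dinucleotides stood against 11 to 24 in the others. Among these windows the hexamer was present both with and without a peak. A match is a description of the letters and not a binding site.

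Clone 1 had a promoter peak at 13 of the 40 genes, clone 2 at 20 and clone 3 at 14 (mean 15.7, SD 3.79, n = 3 clones), while 39.8%, 46.2% and 38.5% of all genes had one. A promoter peak in every clone was found for 13 genes, or 32.5%, beside 36.8% of all genes. These were Kcnq1ot1, Tssc4, Cd81, Ube3a, Igf2r, Airn, Gnas, Nespas, H13, Impact, Zrsr1, Peg13 and Trappc9. Grb10 had one in clones 2 and 3, 6 genes in clone 2 only (Peg10, Sgce, Mkrn3, Mcts2, Rasgrf1 and Slc38a4), and 20 in no clone, beside 53.0% of all genes without one in any clone. Counting the gene body as well, 15 genes had a peak in all 3 clones, beside 40.1% of all genes, and 8 had none within 50 kb in any clone, beside 23.9% of all genes. Of the 34 protein-coding members 9 had a promoter peak in all 3 clones, beside 46.5% of all 21938 protein-coding genes. Of the 6 non-coding members 4 had one. Among the 31078 genes without the 21938 protein-coding ones, 1218 had one, a lower share, though 6 members are few.

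**Figure D1:**
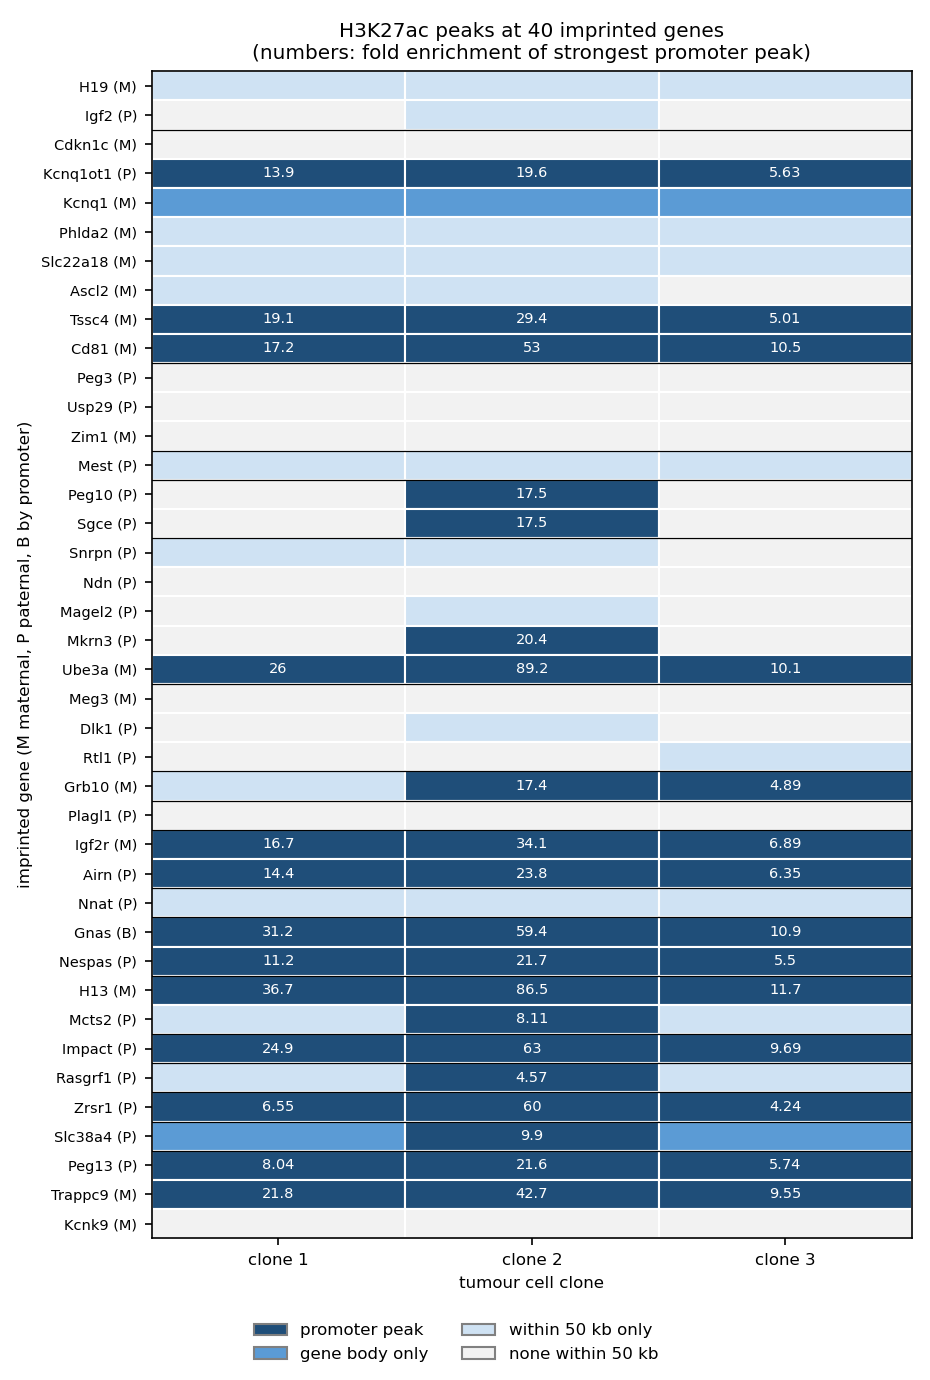
H3K27ac peaks at the 40 imprinted genes (rows, grouped by cluster; M, P and B mark maternal, paternal and promoter-dependent expression) in clones 1 to 3 (columns). Colour gives the nearest class of peak and the number is the fold enrichment of the strongest promoter peak: 13 rows are filled in every clone and 20 hold no promoter peak.

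By parent of origin, 6 of the 16 maternally and 6 of the 23 paternally expressed genes had a peak at a start in every clone. Of all genes, 36.8% had one. The 6 genes with one in clone 2 only were all paternally expressed, and 5.71% of all genes were of that kind. Clone 2 also has the most peaks. With the 29182 strongest peaks of each clone, 5 of these 6 genes kept their promoter peak in clone 2, Rasgrf1 being the one that did not. Peg10 and Sgce share their peaks, so they are not separate sites. How many of all genes with a promoter peak in clone 2 only kept it was not counted. The part of the longer list in this pattern was not tested. No peak was found within 1 kb of a start of 9 maternally and 11 paternally expressed genes, beside 53.0% of all genes without one. The parental labels were not checked in these cells. Ube3a, Cd81 and Tssc4, counted as maternal, are known as imprinted mainly in neurons or the placenta.

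On distal chromosome 7, the Kcnq1 cluster is governed by Kcnq1ot1, a paternally expressed non-coding RNA that runs antisense inside Kcnq1 and silences its neighbours on the paternal copy. Its start had a peak in each clone, at chr7:143295478-143296552 in clone 1, chr7:143295185-143297093 in clone 2 and chr7:143295428-143296775 in clone 3. Fold enrichment was 13.9, 19.6 and 5.63, from 63, 135 and 88 reads. The summit lay 493, 243 and 417 bp inside the transcript, downstream of the bases printed above. Kcnq1 itself, a potassium channel expressed from the maternal copy in early development, had no promoter peak in any clone. Its one body peak shared by the 3 clones is that same Kcnq1ot1 peak, and in clone 2 there was another, weak one (chr7:143366559-143366862, 18 reads).

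The maternally expressed genes of this cluster fell into those with and those without a peak. Cd81, a tetraspanin of the cell surface, had promoter peaks of 17.2, 53.0 and 10.5-fold (84, 268 and 102 reads; chr7:143052734-143054105 in clone 1, chr7:143052402-143055276 in clone 2 and chr7:143052878-143054123 in clone 3). Tssc4, its neighbour, had 19.1, 29.4 and 5.01-fold (75, 135 and 78 reads; chr7:143069333-143070524, chr7:143068434-143071185 and chr7:143069519-143070449). Both lie at the edge of the cluster, where imprinting is known mainly from the placenta. Cdkn1c, the growth-restraining CDK inhibitor p57, had no peak within 50 kb in any clone, and the nearest was 87.1, 53.1 and 86.9 kb away. Phlda2, a placental growth restrainer, and Slc22a18, a transporter, had no peak of their own in the gene or at a start. The peak within 50 kb that they had in all 3 clones was that of Nap1l4 (150, 308 and 96 reads). Ascl2, a placental transcription factor, had peaks 40.0 kb away in clone 1 and 38.3 kb away in clone 2, and none within 50 kb in clone 3.

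**Figure D2:**
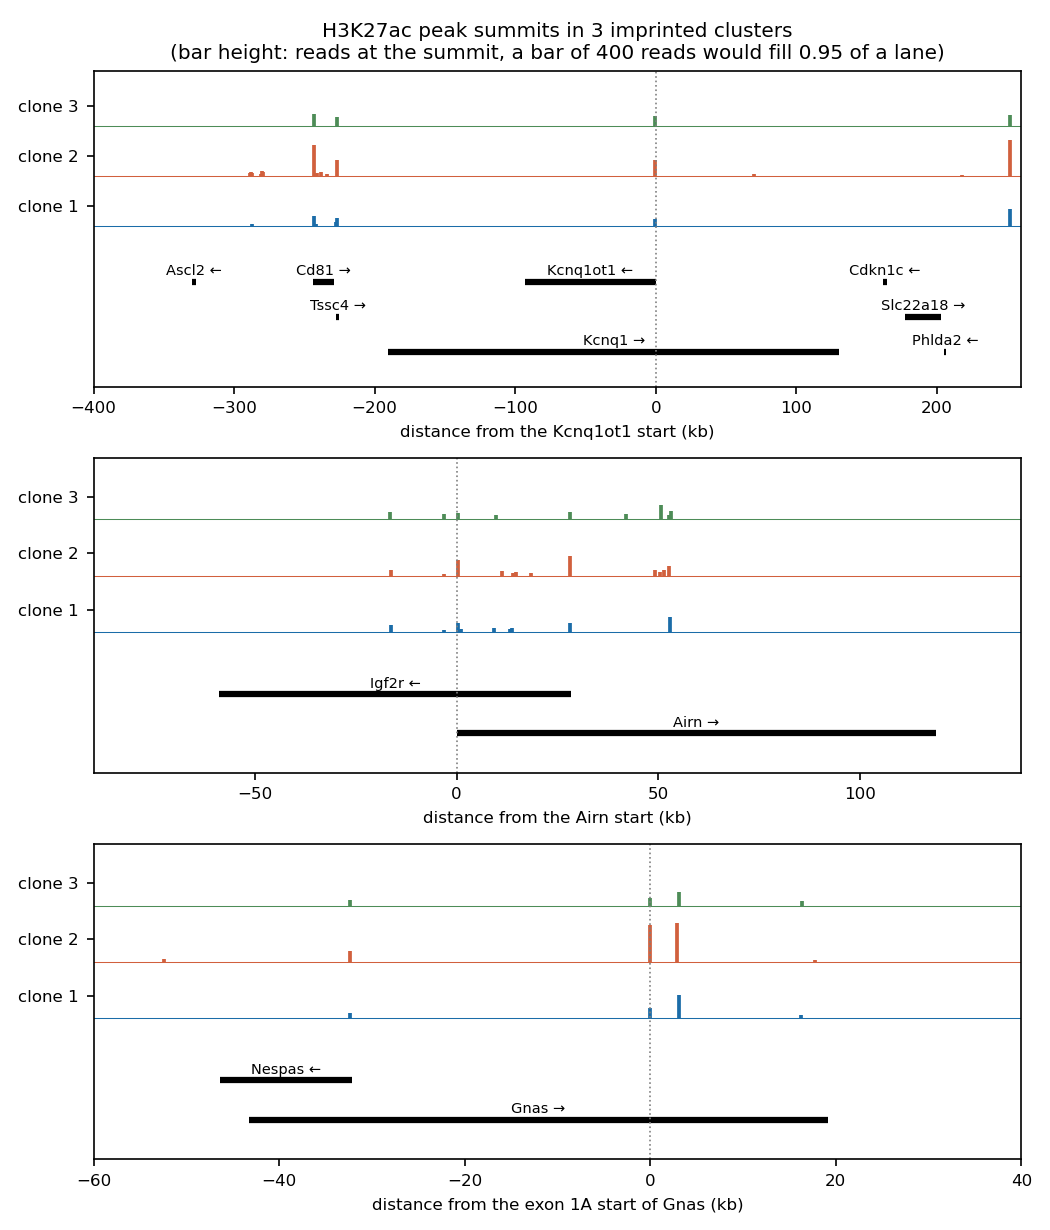
Summits of H3K27ac peaks (vertical bars, height in reads) in clones 1 to 3 around the starts of Kcnq1ot1 (top), Airn (middle) and exon 1A of Gnas (bottom), by distance in kb; black lines are the imprinted genes with arrows for their strand, and only peaks within 50 kb of a gene drawn are shown. A bar stands at or just inside the dotted line in every clone in all 3 clusters, and no bar stands over Cdkn1c, Phlda2 or Slc22a18.

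H19 and Igf2, the other domain of distal chromosome 7, had no promoter or body peak. H19 is a maternally expressed non-coding RNA and Igf2 the paternally expressed growth factor that shares its enhancers. The peak nearest to H19 lay 41.5, 41.4 and 41.6 kb away, at the start of Mrpl23 (133, 244 and 120 reads). Igf2 had a peak of 21 reads 3.62 kb beyond its end in clone 2 only; in clones 1 and 3 the nearest was 116.7 and 116.8 kb away.

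At Igf2r and Airn on chromosome 17 both partners of an antisense pair had a peak. Igf2r, the maternally expressed receptor that carries IGF2 to the lysosome, had promoter peaks of 16.7, 34.1 and 6.89-fold (70, 147 and 58 reads) at chr17:12768870-12769959, chr17:12768958-12770141 and chr17:12769191-12769655. Airn, the paternally expressed RNA that starts within Igf2r and runs against it, had 14.4, 23.8 and 6.35-fold (70, 119 and 49 reads) at chr17:12741330-12741947, chr17:12741256-12742678 and chr17:12741293-12741912. The reads at the 2 starts were equal in clone 1 and higher at Igf2r in clones 2 and 3. A start of Igf2r inside the gene also had a peak in clone 1 (28 reads) and clone 3 (34 reads, −log10 q of 1.5, close to the calling limit). Other sites recurred in the 3 clones. In the body of Igf2r, one had summits at 12725082, 12725146 and 12724747 with 52, 46 and 57 reads. A weaker one had 16, 15 and 39 reads. In the body of Airn there was a stretch from 12790523 to 12795044 in clone 1 with 112 reads, broken into 4 peaks in clone 2 and 3 in clone 3.

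Gnas on chromosome 2 makes several transcripts from promoters of different imprinting. The main start of the gene, for the G protein subunit Gs alpha, and the exon 1A start, which is paternally expressed, had separate peaks in each clone. At exon 1A fold enrichment was 16.8, 59.4 and 7.69 (77, 275 and 60 reads; chr2:174326895-174327990, chr2:174326978-174328180 and chr2:174326959-174327792), and the summits fell within 10 bp of the start in each clone. At the main start it was 31.2, 41.4 and 10.9 (171, 288 and 103 reads; chr2:174328750-174331722, chr2:174328331-174331563 and chr2:174329705-174331604). The main start had more reads than exon 1A in clones 1 and 3 by a wide margin and in clone 2 by 288 to 275. Another start of Gnas, further into the gene, had weak peaks of 27, 17 and 34 reads within 1 kb. The 3 start groups furthest upstream, which give the neuroendocrine and extra-large protein forms, had none within 1 kb in any clone. Nespas, the paternally expressed antisense RNA, had a peak just inside its start of 11.2, 21.7 and 5.50-fold (42, 86 and 42 reads; chr2:174294630-174295348, chr2:174294739-174295525 and chr2:174294691-174295381), which also counts as a body peak of Gnas.

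H13, a maternally expressed signal peptide peptidase, holds the paternally expressed retrogene Mcts2 in an intron. Its promoter peak was among the strongest of the 40 genes, at 36.7, 86.5 and 11.7-fold (143, 350 and 114 reads; chr2:152669338-152670478, chr2:152669209-152671595 and chr2:152669369-152670522). Mcts2 had one in clone 2 only, of 8.11-fold and 35 reads (chr2:152686688-152687524). In clones 1 and 3 the nearest peak to Mcts2 was 2.41 and 2.39 kb away. Clone 2 had 16 body peaks over H13, that of Mcts2 included, against 4 in clone 1 and 3 in clone 3; joined over gaps of up to 12.5 kb they formed a domain of 18 peaks, in the top 1.54% of the 18281 domains of that clone by bases under peaks. A body site with summits at 152696683, 152696754 and 152696720 was present in each clone, with 19, 123 and 54 reads.

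In the cluster of Prader-Willi and Angelman syndromes on chromosome 7, the protein ligase Ube3a was apart from the rest. Ube3a, maternally expressed in neurons and from both copies in other tissues, had promoter peaks of 26.03, 89.2 and 10.1-fold (182, 361 and 128 reads; chr7:59227941-59230139, chr7:59227899-59229967 and chr7:59228027-59230438), the most reads of any member in each clone. The 4 paternally expressed genes had no peak at a start in clones 1 and 3. Mkrn3, a zinc-finger ligase, had one in clone 2 (chr7:62419384-62420195, 20.4-fold, 93 reads). In clones 1 and 3 the peak nearest to Mkrn3 was 1333.6 and 1001.0 kb away. Ndn and Magel2, neuronal MAGE genes nearby, had no promoter or body peak, the Mkrn3 peak of clone 2 being the nearest at 69.1 and 37.7 kb. Snrpn, whose start is the imprinting centre of the cluster, had none at either of its starts; a peak 15.4 and 15.2 kb away was seen in clones 1 and 2 (37 and 68 reads), and in clone 3 the nearest was 752.1 kb away. Peg12 had a promoter peak in clone 2 alone (18 reads).

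Peg10 and Sgce on chromosome 6 share a start region in opposite directions. Both are paternally expressed, Peg10 being derived from a retrotransposon and needed in the placenta, and Sgce coding for a sarcoglycan. In clone 2 the region had a peak of 17.5-fold and 87 reads at chr6:4746615-4747222 and a smaller one of 23 reads at chr6:4747332-4747608, which count for both genes. Clones 1 and 3 had none within 50 kb of either gene. Casd1, on the other side of Sgce, had a promoter peak in every clone (44, 125 and 51 reads), so the region was not without peaks as a whole. Ppp1r9a had one in clone 2 only and Pon3 in clones 1 and 2.

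Zrsr1 and Impact, both paternally expressed, had a promoter peak in every clone, and that of Zrsr1 was far higher in clone 2. Zrsr1 lies in an intron of Commd1 on chromosome 11. Its peak was 6.55-fold with 44 reads in clone 1 (chr11:22971987-22973116), 60.01-fold with 278 reads in clone 2 (chr11:22971766-22973389) and 4.24-fold with 38 reads in clone 3 (chr11:22972495-22972770). Ranked among all genes with a promoter peak in the same clone, that is percentile 8.9 in clone 1, 78.4 in clone 2 and 7.0 in clone 3. An annotated start of Commd1 lies at the same peak, so the signal cannot be given to one of the 2 genes, and the peak of clone 3 is lost when −log10 q must be at least 5. Impact, a regulator of translation on chromosome 18, had a peak at its main start region of 24.9, 63.0 and 9.69-fold (115, 354 and 91 reads). A start group further upstream had a separate one of 10.9, 27.2 and 5.01-fold (49, 111 and 38 reads).

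Grb10 on chromosome 11, an adaptor that restrains growth, is expressed from the maternal copy in most tissues and from the paternal copy in neurons through other starts. Its peaks in clone 2 (chr11:12036424-12037319, 17.4-fold, 73 reads) and clone 3 (chr11:12036819-12037178, 4.89-fold, 39 reads) lay 468 and 415 bp inside the start at 12037401, which belongs to the maternal form. The start group at 12026324 to 12026732, in the region methylated in the egg, had none. In clone 1 the nearest peak was 34.1 kb away. Cobl, a neighbour, had a promoter peak in clone 2 only, and Ddc in clones 1 and 3.

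The imprinted genes of chromosome 15 are given with a caution. The background there was higher in the list of each clone, with that of clones 1 and 2 shared. The paper reports that the cell lines it analysed had a gain of the FVB form of this chromosome. The values here therefore need not be sums over equal numbers of maternal and paternal copies. What part the gain or the higher background has in these peaks was not tested. Trappc9, a trafficking protein gene, had promoter peaks of 21.8, 42.7 and 9.55-fold (152, 297 and 97 reads; chr15:73060285-73061135, chr15:73060327-73061250 and chr15:73060408-73061150). Peg13, a paternally expressed RNA in an intron of Trappc9, had 8.04, 21.6 and 5.74-fold (35, 108 and 44 reads; chr15:72809643-72810321, chr15:72809341-72810470 and chr15:72809613-72810311). Kcnk9, the maternally expressed potassium channel of the same cluster, had no peak within 50 kb; the nearest, 263.3, 254.5 and 263.3 kb away, was at or near Peg13. Slc38a4, a paternally expressed amino acid transporter, counts as having a promoter peak in clone 2 only (chr15:97054294-97055215, 9.90-fold, 67 reads). That count turns on the 1 kb limit: the summit of this peak, 1240 bp inside the start, lay 1 bp from that of a body peak of clone 1 (chr15:97054475-97054885, 5.65-fold, 26 reads), and with a limit of 2 kb both clones have one. Clone 3 had no peak there and 3 in the rest of the gene. Its neighbours Slc38a1 and Slc38a2 had promoter peaks in each clone, of 124 to 383 and 227 to 460 reads.

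The members in the Peg3, Dlk1, Plagl1, Mest, Nnat and Rasgrf1 regions had no promoter peak in clones 1 and 3. Peg3, Usp29 and Zim1 had no peak within 50 kb in any clone: from Peg3, a zinc-finger gene of maternal behaviour and fetal growth, the nearest was 320.1, 320.2 and 390.6 kb away. Plagl1, a transcription factor of the imprinted network, had its nearest peak 51.4, 51.2 and 51.3 kb away, just beyond the limit. Meg3, the maternally expressed RNA of the Dlk1 region, had none within 50 kb, and Dlk1, the paternally expressed Notch-like ligand, had peaks 11.04 kb and more away in clone 2 only (87 reads for the stronger). Rtl1, a retrotransposon-derived placental gene, had a weak peak of 34 reads 26.3 kb away in clone 3. Dio3, at the far end of that region, had a promoter peak in clone 2 only, of 109 reads. Mest, a paternally expressed hydrolase gene, had peaks no nearer than 29.7, 29.5 and 29.6 kb, where Cep41 starts (85, 180 and 84 reads), while Copg2 on its other side had a promoter peak in each clone. Nnat, in an intron of Blcap, had none at its own starts, although the peak of a Blcap start (165, 312 and 182 reads) was only 3.04, 3.03 and 3.11 kb away. Rasgrf1, an exchange factor for Ras, had a promoter peak in clone 2 of 19 reads (chr9:89909552-89909788, 4.57-fold), the fewest reads at the strongest promoter peak of any of the 40 genes, which is lost at a −log10 q of at least 5.

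Read across clusters, the starts that lie in control regions methylated in the egg did not behave alike; this grouping was made after their values were seen. Kcnq1ot1, Airn, Nespas, exon 1A of Gnas, Peg13, Zrsr1 and Impact had a peak in every clone. Peg10 with Sgce and Mcts2 had one in clone 2 only. The starts of Peg3, Mest, Snrpn, Plagl1 and Nnat, and the Grb10 starts in its methylated region, had none. No complete list of such regions was used.

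For each clone, the strongest promoter peak of each gene was ranked by fold enrichment among all genes with one in that clone, so that clones can be set side by side. The median percentile of the members was 45.6 in clone 1, 29.4 in clone 2 and 33.4 in clone 3 (mean 36.1, SD 8.5, n = 3 clones), where 50 is the median of all such genes. These medians are over different genes: over the 13 genes with a peak in every clone they were 45.6, 57.1 and 36.2, and the 7 others of clone 2 lay between percentiles 2.2 and 26.3. Of the 13 genes with a promoter peak in each clone, H13, Gnas, Ube3a, Impact and Trappc9 stood above the 50th percentile in all 3, while Igf2r, Airn, Nespas, Kcnq1ot1 and Peg13 stood below it in all 3. Tssc4, Cd81 and Zrsr1 fell on either side. The 4 non-coding RNAs ranged from percentile 14.2 to 36.4 over the clones, with medians of 30.4, 28.0 and 23.2; the medians of all 1218 non-coding genes with a promoter peak in each clone were 49.1, 54.3 and 48.8. The 9 protein-coding members had medians of 59.6, 77.7 and 63.1, beside 54.1, 60.6 and 52.4 for all 10209 such protein-coding genes. Signal from 1 active copy and signal from few cells or low occupancy cannot be told apart in sums over both copies.

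**Figure D3:**
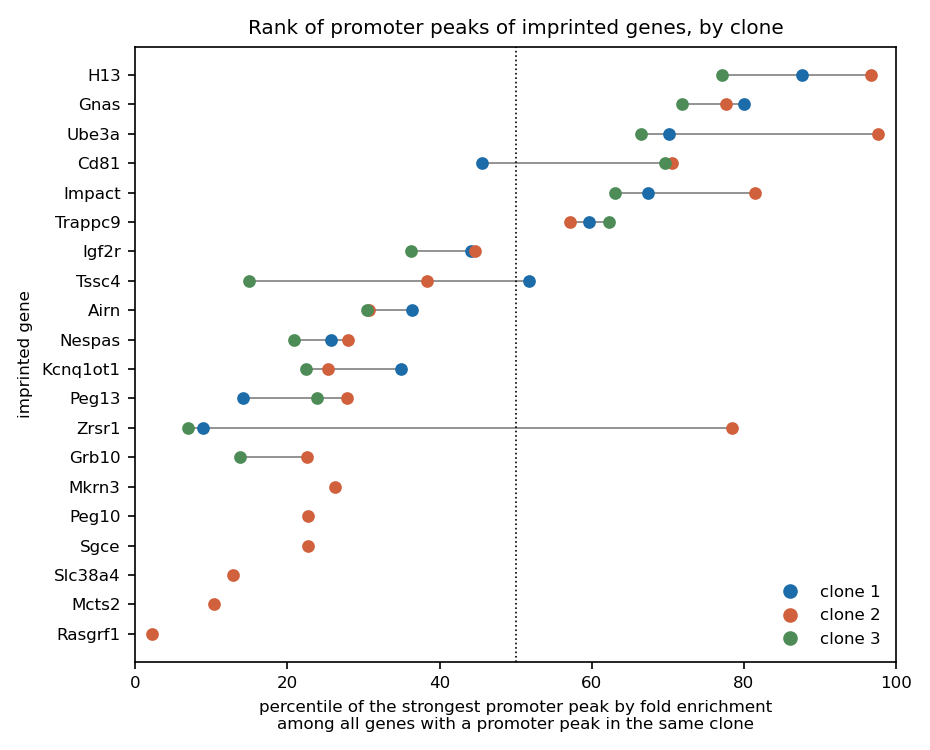
Percentile of the strongest promoter peak (x axis) of each imprinted gene with a promoter peak in at least 1 clone (y axis); points are clones, grey lines join the clones of a gene and the dotted line is the median of all genes with a promoter peak. H13, Gnas and Ube3a are on the right in each clone, the points of Kcnq1ot1, Airn, Nespas and Peg13 all lie left of the line, and Zrsr1 spans from 7.0 to 78.4.

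The sequence around the starts was CpG-rich more often than in all genes. With a ratio of observed to expected CpG of at least 0.6 in the 1 kb around the richest start as the limit, 27 of the 40 genes (67.5%) were CpG-rich, against 40.6% of all genes, and the median ratio was 0.74 against 0.45. Among all CpG-rich genes the share with a promoter peak in every clone was 76.4%, and it was 9 of the 27 CpG-rich members, or 33.3%. A promoter peak counts at any start, so the richest start need not be the one that holds it. The richest start of Nespas (ratio 0.72) had no peak, and its start with the peak had a ratio of 0.57, below the limit. Of those 27, 12 had no promoter peak in any clone: Kcnk9, Cdkn1c, Nnat, Ascl2, Plagl1, Dlk1, Phlda2, Igf2, Mest, Kcnq1, Usp29 and Peg3. Among genes that were not CpG-rich the share was 9.65%, and 4 of 13 members, or 30.8% (Kcnq1ot1, Airn, Peg13 and Trappc9). The ratios of these 4 were 0.45, 0.59, 0.58 and 0.53, so Airn and Peg13 fell just under the limit. Other limits were not tried. The median ratio was 0.70 in the 20 members without a promoter peak, 0.82 in the 7 with one in 1 or 2 clones and 0.74 in the 13 with one in all 3. The ratio therefore did not order the members by their peaks, as the plot of CpG content by number of clones shows.

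**Figure D4:**
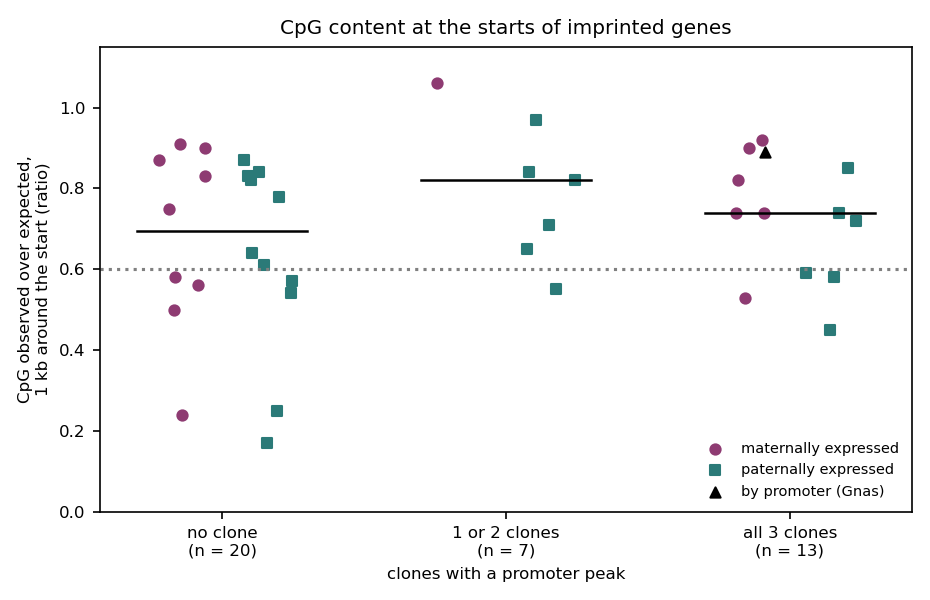
Ratio of observed to expected CpG in 1 kb around the richest start (y axis) of the 40 imprinted genes by the number of clones with a promoter peak (x axis); symbols give the parental origin of expression, bars are medians and the dotted line is the limit of 0.6. The 3 medians, 0.70, 0.82 and 0.74, are all above the limit and the ranges overlap.

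The ZFP57 hexamer, counted on both strands in the same 1 kb, was present at 23 members (57.5%), against 32.1% of all genes and 57.1% of all CpG-rich genes; of the CpG-rich members 66.7% held it. Mest had the most, 10, followed by Plagl1 and Nnat with 6 and Snrpn with 5, and none of these 4 had a promoter peak. Airn and Peg13, with 3 each, had one in each clone. Of the other members with the hexamer, Ube3a, Igf2r, Gnas, H13, Tssc4 and Zrsr1 also had one in each clone. Kcnk9, Cdkn1c, Ascl2, Dlk1, Peg3 and Zim1 had none in any. Members without the hexamer divided too: Kcnq1ot1, Cd81, Impact, Nespas and Trappc9 had a promoter peak in each clone. Phlda2, Igf2, Kcnq1, Usp29, Meg3, Magel2, H19, Rtl1, Slc22a18 and Ndn had none. For Nespas the window searched, at its richest start, is not the one with the peak. A link between hexamer and peak was not tested. The core AAGATGG of the factor YY1, which is known at some imprinted control regions, was found at 8 members (20.0%) and 19.6% of all genes.

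Genes that set or keep imprints were themselves mostly marked. Of 18 such genes 14 (77.8%) carried a promoter peak in every clone, beside 46.5% of all protein-coding genes. Among all genes with a CpG-rich start the share was 76.4%, about the same, so the count is not particular to these genes. The 14 include Dnmt1, which copies DNA methylation (105, 162 and 71 reads), Zfp57 (60, 156 and 57 reads), its cofactor Trim28 (150, 356 and 105 reads) and Ctcf, which insulates the H19 control region (279, 419 and 190 reads). Dnmt3l and Ctcfl, both known for their part in germ cells, had one in clone 2 only, of 25 reads each. Dppa3 and Tet1 had none. Of 54 other genes in or beside the imprinted clusters, 26 (48.1%) carried a promoter peak in every clone and 20 (37.0%) in none, beside 46.5% and 42.6% of all protein-coding genes. The other 8 had one in some clones: Tspan32, Ppp1r9a, Peg12, Dio3 and Cobl in clone 2 only, Pon3 and Ctnnbl1 in clones 1 and 2, and Ddc in clones 1 and 3.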

How the data were processed

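H3K27ac ChIP-seq of 3 tumour cell clones was analysed from 3 deposited peak lists, 1 per clone. Per the paper's methods, the authors aligned their single-end reads against GRCm38 using bowtie2 at default settings; MACS2 2.1.1 is named in the submitters' processing notes. The lists of clones 1 and 2 are marked as checked for allelic mapping bias, and the 2 libraries of clone 3 were pooled. The deposited values are fold enrichment (a ratio), −log10 p and −log10 q at each summit, and the summit's offset, a number of bases per the file format. Allele counts were not analysed here.

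Peaks outside the assembled chromosomes were left out (5, 21 and 3) and the rest were joined to the starts and bodies of GENCODE M21 genes; all 40 members matched. Named were all members, in order of cluster, with positions and values for those with a promoter peak or with body peaks in all clones and the nearest peak for the others, and the genes of the other lists with peaks in some clones. Reads at summits were recovered from fold enrichment and p, which returned whole reads for 100% of peaks (tolerance 0.02 read) and a single solution for 91.3%, 90.5% and 90.3%. The recovery was tested on simulated data. Scripts ran in Python 3.11.15 with pandas 2.3.3, scipy 1.17.1, numpy 2.4.6 and, for plots, matplotlib 3.10.9. Sequences came from the NCBI RefSeq copy of GRCm38. Members and lists were chosen with earlier results of these data known. Alternatives were other windows, starts, thresholds, peak numbers, rankings and leaving out each clone. There is 1 condition, so no test was made, and the SD over 3 clones is the error given. The number of reads limits what a list holds, and counts cover counting error only.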

Additional observations from a re-analysis of the deposited data

How the results depend on the processing

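Of 75 alternatives tried over 8 results, 71 left the value within the limits set (counts within 1.5 times, values within 1 SD over clones) and 4 did not. The number of paternally expressed genes with a promoter peak in all 3 clones fell from 6 to 3 when a peak had to cover the start base itself; Nespas, Zrsr1 and Peg13 then no longer counted, their peaks standing beside the start in at least 1 clone. The number of genes with no peak within 50 kb was 8, and became 13 with 20 kb and 4 with 100 kb on each side, as the distances themselves require. Leaving out each clone in turn gave 8 to 14 such genes, the highest without clone 2, and 13 to 14 genes with a promoter peak in all remaining clones. Genes with a promoter peak in at least 1 clone numbered 20, and 14 without clone 2. No paired analysis was possible because there is 1 condition and no test between groups. A site with fewer reads than the weakest listed peak is not seen, and the signal of the 2 parental copies is not separated.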
